A study of Mus musculus with 36 samples.

Results

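The Notch receptors, ligands and targets described here are 10 genes chosen by name out of the 52636 genes in the count table. They are the 4 receptors Notch1, Notch2, Notch3 and Notch4, the 4 ligands Dll1, Dll4, Jag1 and Jag2, and the 2 target genes Hes1 and Hey1. All 10 passed the filter on low counts that left 15330 genes to test. RNA-seq was performed on cells isolated by fluorescence-activated cell sorting from skeletal muscle (diaphragm, pectoralis and limb muscles) of juvenile S100β-GFP;NG2-dsRed mice. Every animal carried both transgenes, in which the S100β promoter drives GFP and the NG2 promoter drives dsRed, and the muscles of 1 mouse made 1 replicate. The S100β-GFP+;NG2-dsRed+ cells are perisynaptic Schwann cells (PSCs), the glia that cap motor nerve terminals (n = 9). The S100β-GFP+ cells carry GFP alone and were sorted as the other Schwann cells of muscle (n = 8), and the NG2-dsRed+ cells carry dsRed alone and include pericytes (n = 10). The labels list 12 samples of each cell type, and the 9 samples that are not in the count table were not analysed here. The table holds 1 more S100β-GFP+ library than the study kept after it removed failed samples, and the sources used here do not say which, so all 8 were used. The study's methods give postnatal days 15 to 21 for the muscles collected, as does the label of the first library. In the later labels the upper day rises with the library number until it reaches 46. Age was therefore not used.

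Notch is a receptor system that works between touching cells. Delta-like and Jagged ligands on a neighbouring cell bind a Notch receptor, proteases release its intracellular domain, and this domain joins the DNA-binding protein Rbpj and a Mastermind protein to switch on genes such as Hes1 and Hey1. In muscle, Dll4 and Notch4 are known from endothelium, Notch3 from pericytes and smooth muscle cells, and Notch1 and Jag1 from many cell types, Schwann cells among them.

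The sorted cell types were checked against their defining genes before the members were read, in counts per 1000000 (CPM) scaled by edgeR's TMM factors. Sox10, the transcription factor that defines Schwann cells, averaged 506 ± 103 CPM (SD, n = 9) in PSCs, 20.2 ± 12.0 (n = 8) in S100β-GFP+ cells and 4.45 ± 2.44 (n = 10) for NG2-dsRed+ cells. Cspg4, which encodes NG2, stood at 689 ± 132, 71.0 ± 42.3 and 665 ± 138 CPM in the same order, and S100b at 255 ± 198.5, 29.4 ± 10.1 and 6.54 ± 4.90 CPM. The S100β-GFP+ libraries thus held little Sox10, while 8 fibroblast markers summed to 16360 to 33970 CPM in them and 8 macrophage and leukocyte markers to 439 to 3190 CPM, against 1304 to 3518 and 2.59 to 14.0 CPM in PSCs. The NG2-dsRed+ libraries held pericyte and smooth muscle markers (12 genes, 7283 to 15480 CPM) together with endothelial markers (14 genes, 1986 to 4842 CPM), and no marker on any list was at 0 across a whole cell type. Markers of satellite cells summed to at most 91.5 CPM and those of muscle fibres to at most 1305 CPM in any library. The endothelial sum was 200.1 to 939 CPM in PSCs. Tek weighed heavily in this sum for S100β-GFP+ cells, with a median of 126 CPM (81.8 to 203.6), where every other marker had a median of at most 41.1 CPM. In PSCs Tek averaged 19.4 ± 9.56 CPM and in NG2-dsRed+ cells 140 ± 34.6 CPM. In S100β-GFP+ libraries 14, 17 and 22 the endothelial sum was 1100.0, 3637 and 1985 CPM, and in the other 5 it was 159 to 254 CPM. The same 3 libraries had 25890, 29103 and 38568 genes with a count, against 19669 to 23292 in the other 5. Their macrophage and leukocyte markers summed to 924, 617 and 439 CPM, against 1998 to 3190 CPM. Because of these endothelial sums, PSC results against S100β-GFP+ cells are also given without these 3 libraries. This is done for the members and for named pathway genes whose call or direction changed. No PSC library was left out for its endothelial sum. Leaving out the 3 lowers in S100β-GFP+ cells any gene that was high in them, such as Dll4, Notch4 and Hey1. A turn toward PSCs was thus favoured by the choice, and its adjusted p does not test it independently. Gene detection and macrophage content change with the choice too. In the fit without these 3 libraries the median log2 fold change of all genes between PSCs and S100β-GFP+ cells was 0.16, against 0.04 with them. PSC library 18 had the fewest genes with a count (14616). In these bulk samples, fewer cells of a type and less RNA per cell cannot be told apart.

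NG2-dsRed+ cells held the most RNA of nearly all members. Between PSCs and NG2-dsRed+ cells, 8 of the 10 members were lower in PSCs, none was higher, and Notch2 and Hes1 did not pass the test (edgeR's quasi-likelihood test, adjusted p under 0.05), where 44.0% of all genes tested were called and 23.1% were called lower in PSCs. The ranges of the libraries did not overlap for 6 of the 8 (Notch3, Notch4, Dll4, Jag1, Jag2 and Hey1), against 8.83% of all genes in that direction, and no member lay apart in the higher direction (5.08% of all genes). Between PSCs and S100β-GFP+ cells, Hes1 was called higher in PSCs and Notch2, Notch3 and Jag2 were called lower, where 47.0% of all genes were called and 24.1% were called lower, so these counts were near the background. Ranges lay apart for Notch2 alone, which was lower in PSCs (10.3% of all genes, against 5.24% in the higher direction). Between S100β-GFP+ and NG2-dsRed+ cells, all 10 were called, Notch2 higher in S100β-GFP+ cells and the other 9 lower, where 33.3% of all genes were called. Here the ranges lay apart for Notch2 in the higher direction (7.21% of all genes) and for Notch3 and Jag1 in the lower (4.38%). The median log2 fold change of the members was -0.88, -2.58 and -1.87 in these comparisons (PSCs minus S100β-GFP+, PSCs minus NG2-dsRed+, S100β-GFP+ minus NG2-dsRed+), and that of all genes tested was 0.04, 0.02 and -0.02. The comparisons share libraries and are not independent of each other.

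**Figure D1:**
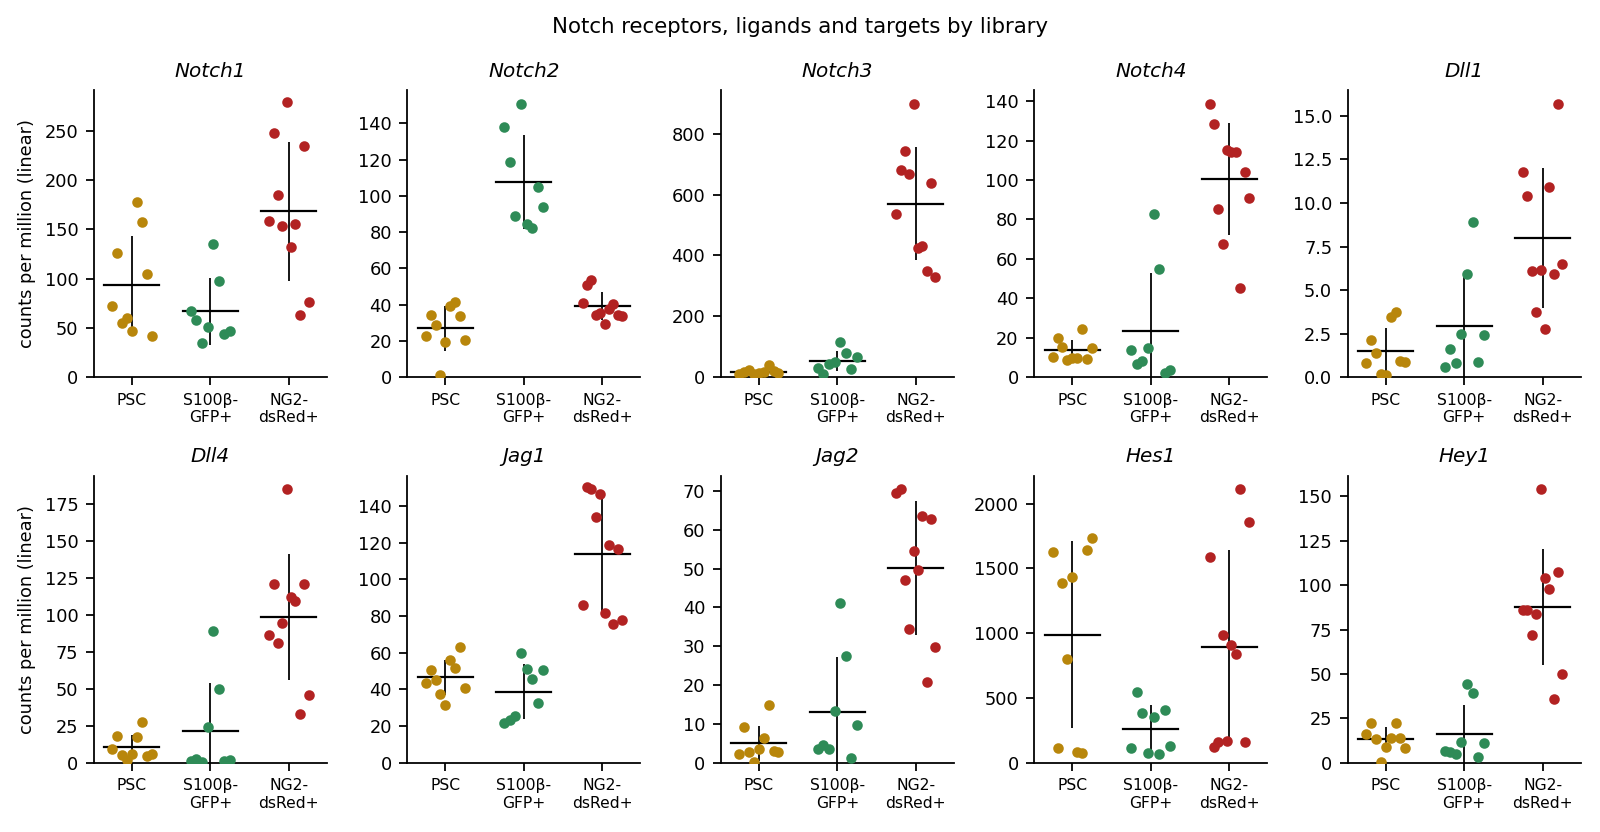
Counts per 1000000, CPM (linear axis from 0, its own scale for each gene) of the 10 members in every library of the 3 cell types; each point is 1 library, the horizontal line the mean and the vertical line 1 SD. For Notch3, Notch4, Dll4, Jag1, Jag2 and Hey1 every PSC library lies below every NG2-dsRed+ library, Notch2 is highest in the S100β-GFP+ libraries, and Hes1 splits into low and high libraries.

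Promoter sequences of RefSeq (build GRCm38.p6) were read for the members and 6 other target genes. Of the members, 8 had an entry, all but Hes1 and Hey1. The 3 printed sequences run 5′ to 3′ from 250 bases before to 20 bases after the start site. They belong to Notch3, the receptor that differed most between PSCs and NG2-dsRed+ cells (chr17:32166871-32167140, minus strand), Dll4, the most abundant ligand per length in NG2-dsRed+ cells (chr2:119325534-119325803, plus strand), and Hey2, a further target gene that was lower in PSCs than in NG2-dsRed+ cells, shown after the search because its window holds the searched letters (chr10:30842764-30843033, minus strand). Capitals mark the core letters TGGGAA that Rbpj binds, or TTCCCA, the same letters on the other strand.
Notch3: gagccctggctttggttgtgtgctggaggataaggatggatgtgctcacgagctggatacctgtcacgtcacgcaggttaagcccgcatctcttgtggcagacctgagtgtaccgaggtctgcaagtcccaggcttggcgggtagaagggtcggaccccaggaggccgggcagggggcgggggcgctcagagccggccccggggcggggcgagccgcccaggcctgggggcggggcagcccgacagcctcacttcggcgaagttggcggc
Dll4: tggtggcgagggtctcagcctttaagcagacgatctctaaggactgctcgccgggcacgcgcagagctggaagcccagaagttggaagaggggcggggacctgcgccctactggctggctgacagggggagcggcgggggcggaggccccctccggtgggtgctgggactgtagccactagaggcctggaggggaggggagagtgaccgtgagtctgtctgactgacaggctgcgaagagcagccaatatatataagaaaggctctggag
Hey2: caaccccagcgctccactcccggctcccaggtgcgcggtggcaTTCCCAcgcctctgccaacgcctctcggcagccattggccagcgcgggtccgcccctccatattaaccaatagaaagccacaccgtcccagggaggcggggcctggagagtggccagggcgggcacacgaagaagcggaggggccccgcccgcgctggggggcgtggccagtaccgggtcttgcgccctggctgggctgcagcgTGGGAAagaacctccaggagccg
Both strands were searched. The 8 members with an entry had no match in these windows and Hey2 had 1 match on each strand. Of the other targets with an entry, Nrarp and Hes6 had none, Hes5 had 2 matches and Hes7 had 1, while 7592 of all 32851 promoters of this length (23.1%) held at least 1. A match describes letters and not a bound site, and a window without one says nothing of sites elsewhere. The 3 windows were rich in G and C (68.5%, 63.7% and 70.7% for Notch3, Dll4 and Hey2), against a median of 52.6% over all promoters.

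Among the receptors, Notch3 separated the cell types most. Notch3 (chromosome 17, 32120820 to 32166852, GRCm38) is the receptor of pericytes and vascular smooth muscle. It ranged from 8.99 to 39.3 CPM (median 17.4) in PSCs, from 9.00 to 115 CPM (median 46.5) in S100β-GFP+ cells and from 329.6 to 899.5 CPM (median 588) in NG2-dsRed+ cells. Every NG2-dsRed+ library lay above every library of the other cell types, whereas PSCs and S100β-GFP+ cells overlapped. The log2 fold change was -4.96 ± 0.38 (SE) for PSCs minus NG2-dsRed+ cells, or 31.2-fold lower (edgeR adjusted p = 1.05e-11). For PSCs minus S100β-GFP+ cells it was -1.51 ± 0.34 (edgeR adjusted p = 0.000591). Without S100β-GFP+ libraries 14, 17 and 22 the latter was -0.86 ± 0.34 and still called (edgeR adjusted p = 0.0451), and with PSC library 18 also left out it was -0.77 ± 0.34 and not called (edgeR adjusted p = 0.0664). As a share of the summed pericyte and smooth muscle markers of the same library, Notch3 stood at 4.17 to 5.81% in NG2-dsRed+ cells, 3.57 to 7.56% in S100β-GFP+ cells and 0.543 to 2.44% in PSCs. The sum in PSCs (1076 to 1768 CPM) was mostly Cspg4 and Mcam (305.5 ± 106 CPM), with Rgs5, a pericyte gene, at 83.4 ± 33.4 CPM against 5322 ± 1545 CPM in NG2-dsRed+ cells. The part of pericytes in the Notch3 differences was not tested.

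Notch2 ran the other way and was highest in S100β-GFP+ cells. Notch2 (chromosome 3, 98013527 to 98150361) is a widely expressed receptor. Its level was 82.3 to 151 CPM (median 99.3) in S100β-GFP+ cells, 1.05 to 41.3 CPM (median 29.0) in PSCs and 29.0 to 53.8 CPM (median 36.6) in NG2-dsRed+ cells. All 8 S100β-GFP+ libraries lay above all 19 others, while PSCs and NG2-dsRed+ cells overlapped. The lowest value, 1.05 CPM, was that of PSC library 18, and the other 8 PSC libraries held 19.6 to 41.3 CPM. Notch2 was lower in PSCs relative to S100β-GFP+ cells by a log2 fold change of -2.01 ± 0.31 (edgeR adjusted p = 4.31e-06) and differed from NG2-dsRed+ cells by -0.54 ± 0.29 (edgeR adjusted p = 0.138). In S100β-GFP+ cells it was 1.46 ± 0.30 higher on the log2 scale than in NG2-dsRed+ cells (edgeR adjusted p = 0.000274). Without libraries 14, 17 and 22 these 2 calls stood at -1.96 ± 0.35 and 1.46 ± 0.34, and with PSC library 18 also left out at -1.80 ± 0.18 and 1.46 ± 0.17. Fibroblast and macrophage markers were also highest in the S100β-GFP+ libraries, and their part in the Notch2 difference was not tested.

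Notch1 (chromosome 2, 26457903 to 26516663), a receptor found in many cell types, differed less between the cell types. It ranged from 42.0 to 177 CPM (median 72.6) in PSCs, from 34.6 to 135 CPM (median 54.2) in S100β-GFP+ cells and from 62.8 to 279 CPM (median 157) in NG2-dsRed+ cells. The groups overlapped in all 3 pairs. PSCs were lower than NG2-dsRed+ cells by -0.85 ± 0.31 on the log2 scale (edgeR adjusted p = 0.0252), a call lost in 6 of 27 fits that each left out 1 library (PSC library 4, 12, 18, 20 or 36 or NG2-dsRed+ library 15, at -0.75 to -0.69 and edgeR adjusted p of 0.0546 to 0.0677). The difference from S100β-GFP+ cells was 0.49 ± 0.32 (interval of 1.96 SE from -0.15 to 1.12, edgeR adjusted p = 0.224), and it was 0.95 ± 0.35 without libraries 14, 17 and 22 (edgeR adjusted p = 0.0315). Notch4 (chromosome 17, 34564268 to 34588503), an endothelial receptor, was at 8.59 to 24.5 CPM (median 10.1) in PSCs and 45.3 to 139 CPM (median 109) in NG2-dsRed+ cells, with no overlap. The PSC minus NG2-dsRed+ log2 fold change of Notch4 was -2.89 ± 0.47 (edgeR adjusted p = 1.05e-05). In S100β-GFP+ cells Notch4 spanned 2.26 to 82.5 CPM (median 10.8), with its 3 highest values in libraries 14, 22 and 17. Against S100β-GFP+ cells the PSC value was -0.77 ± 0.47 with all libraries (edgeR adjusted p = 0.182) and 1.02 ± 0.34 without those 3 (edgeR adjusted p = 0.0164), so its direction rested on them.

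Levels of different receptors can be compared only per length, and for this CPM was divided by the length of all annotated exons in kb. On that scale the leading receptor was a different one in each cell type. Notch1 was the highest receptor in 9 of 9 PSC libraries (49.4 ± 11.0% of the 4 receptors), Notch2 in 6 of 8 S100β-GFP+ libraries (46.2 ± 16.6%, with Notch3 highest in 2) and Notch3 in 10 of 10 NG2-dsRed+ libraries (71.2 ± 4.82%). The 4 receptors summed to 13.0 ± 5.64 CPM per kb in PSCs, 24.0 ± 8.78 in S100β-GFP+ cells and 98.4 ± 29.0 for NG2-dsRed+ cells. Within PSCs the order of the mean levels was Notch1 at 6.56 ± 3.52, Notch2 at 2.49 ± 1.16, Notch3 at 2.26 ± 1.13 and Notch4 at 1.68 ± 0.691 CPM per kb. The last 3 lay within 1 SD of their neighbours.

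**Figure D2:**
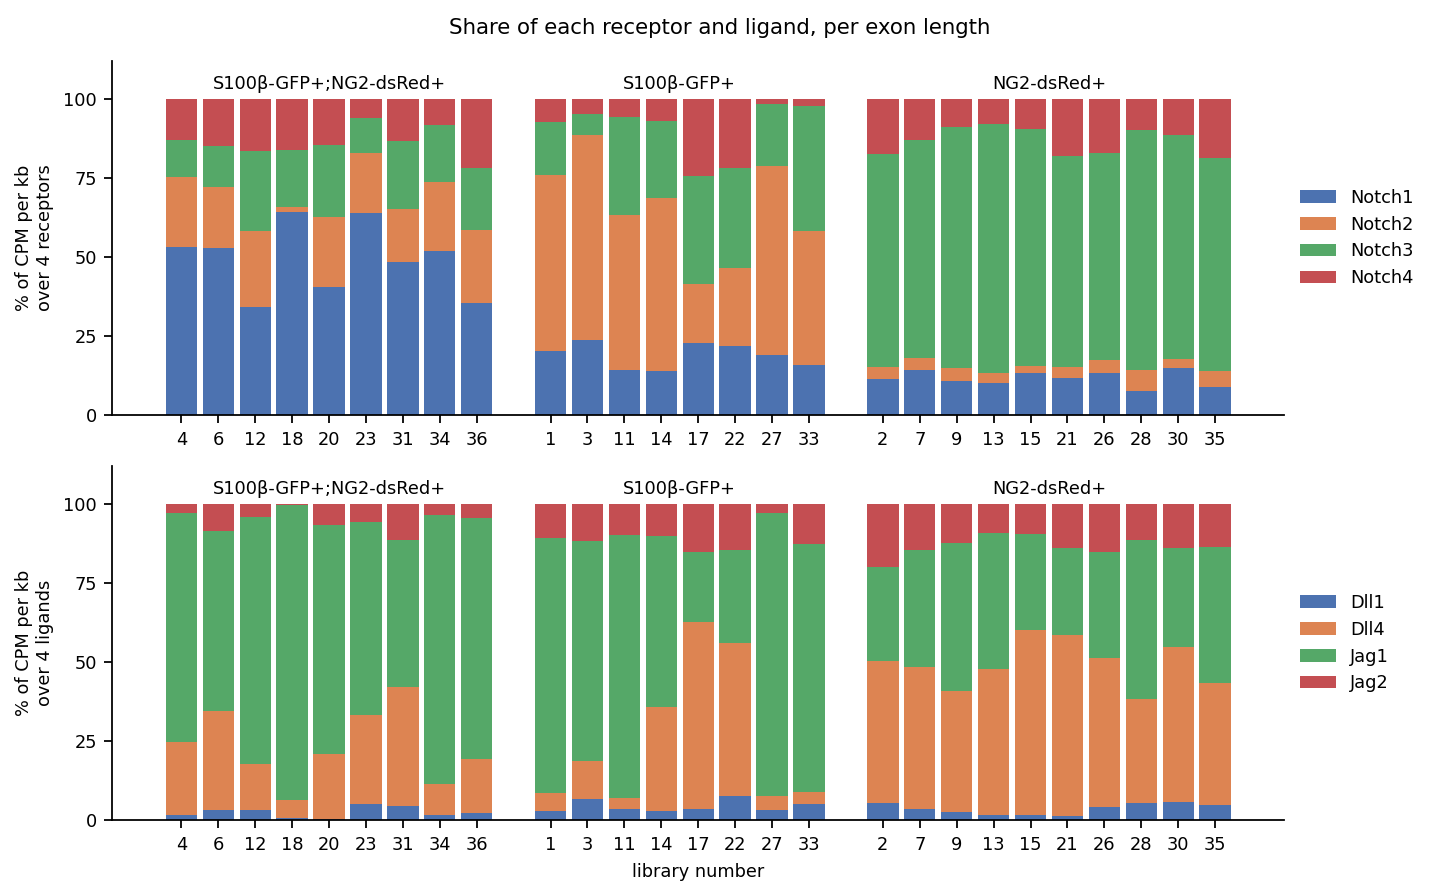
Share of each receptor (top) and each ligand (bottom) in the summed CPM per kb of its 4 genes, in percent, 1 stacked bar per library with the library number below. Notch1 and Jag1 lead in all 9 PSC libraries, Notch3 leads in all 10 NG2-dsRed+ libraries, and Dll4 takes a large share in the NG2-dsRed+ libraries and in S100β-GFP+ libraries 14, 17 and 22.

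Of the ligands, Jag1 was the one PSCs held most of. Jag1 (chromosome 2, 137081456 to 137116644), a Jagged ligand of many tissues, ranged from 31.5 to 62.9 CPM (median 44.9) in PSCs, from 21.8 to 60.0 CPM (median 39.0) in S100β-GFP+ cells and from 75.8 to 150.0 CPM (median 118) in NG2-dsRed+ cells. All NG2-dsRed+ libraries lay above all others, and PSCs and S100β-GFP+ cells overlapped. The PSC minus NG2-dsRed+ log2 fold change of Jag1 was -1.29 ± 0.20 (edgeR adjusted p = 4.29e-06), the smallest of the ligands. Against S100β-GFP+ cells it was 0.27 ± 0.21 (edgeR adjusted p = 0.306) with an interval of -0.14 to 0.67, and 0.66 ± 0.22 without libraries 14, 17 and 22 (edgeR adjusted p = 0.0152). Jag2 (chromosome 12, 112907819 to 112929776), the second Jagged ligand, was low in PSCs at 0.175 to 14.9 CPM (median 2.98), 1.22 to 41.2 CPM (median 7.20) in S100β-GFP+ cells and 20.7 to 70.4 CPM (median 52.1) in NG2-dsRed+ cells. PSC and NG2-dsRed+ libraries did not overlap for Jag2, and the log2 fold change between them was -3.35 ± 0.55 (edgeR adjusted p = 1.02e-05). The Jag2 call against S100β-GFP+ cells (-1.39 ± 0.54, edgeR adjusted p = 0.0361) was lost in 8 of 27 fits without 1 library, namely PSC library 4, 12, 18, 20, 34 or 36 (-1.30 to -1.20) or S100β-GFP+ library 17 or 22 (-0.87 and -1.13, edgeR adjusted p = 0.178 and 0.0968). Without libraries 14, 17 and 22 together it was 0.20 ± 0.52 (edgeR adjusted p = 0.788).

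Dll4 (chromosome 2, 119325784 to 119335962), the Delta-like ligand of sprouting endothelium, followed the endothelial markers. PSCs held 1.58 to 27.3 CPM (median 6.11) and NG2-dsRed+ cells 32.7 to 185 CPM (median 102). These ranges did not overlap, and the log2 fold change was -3.22 ± 0.72 (edgeR adjusted p = 0.000501). In S100β-GFP+ cells the libraries 14, 17 and 22 held 24.0, 89.4 and 49.9 CPM, and the other 5 held 0.692 to 2.63 CPM. With all S100β-GFP+ libraries the PSC value differed by -0.99 ± 0.70 (edgeR adjusted p = 0.259), and without those 3 it turned to 2.95 ± 0.56 (edgeR adjusted p = 0.000108). Those 3 were picked by endothelial markers and held the most Dll4 of this cell type. A shift in this direction was set by the choice. Relative to the endothelial sum of the same library, Dll4 was 1.65 to 3.82% in NG2-dsRed+ cells, 0.788 to 3.66% in PSCs, 2.18 to 2.51% in S100β-GFP+ libraries 14, 17 and 22, and 0.275 to 1.03% in the other 5. The same share for Notch4 was 1.97 to 3.60% in NG2-dsRed+ cells and 2.08 to 4.75% in PSCs, and for Hey1 1.79 to 3.18% and 0.263 to 4.80%. The levels of Dll4, Notch4 and Hey1 differed several fold between PSCs and NG2-dsRed+ cells while their shares of the endothelial sum overlapped, as did those of Dll1 and Jag2. Shares of the pericyte and smooth muscle sum overlapped too for all of these genes. In PSCs and NG2-dsRed+ cells they were 0.0906 to 1.69% and 0.414 to 1.19% for Dll4. For Notch4 they were 0.493 to 1.52% and 0.456 to 1.25%, and for Hey1 0.0302 to 1.52% and 0.45 to 1.02%. The overlap was thus not particular to the endothelial sum. The shares of the endothelial sum did not overlap for Notch1 (10.9 to 38.0% in PSCs, 3.00 to 6.38% in NG2-dsRed+ cells) and Jag1 (5.50 to 21.5% and 1.93 to 4.46%). Those of Notch3 lay apart the other way (2.04 to 7.10% and 10.8 to 22.2%). For Dll4, the share of the endothelial sum in the other 5 S100β-GFP+ libraries lay below every NG2-dsRed+ library. That sum was 159 to 254 CPM there, and Tek, at 81.8 CPM or more in every S100β-GFP+ library, was a large part of it. The Dll4 shares of these groups are thus not on a like basis. The part of endothelial cells or of pericytes in the results for Dll4, Notch4, Jag2 and Hey1 was not tested.

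**Figure D3:**
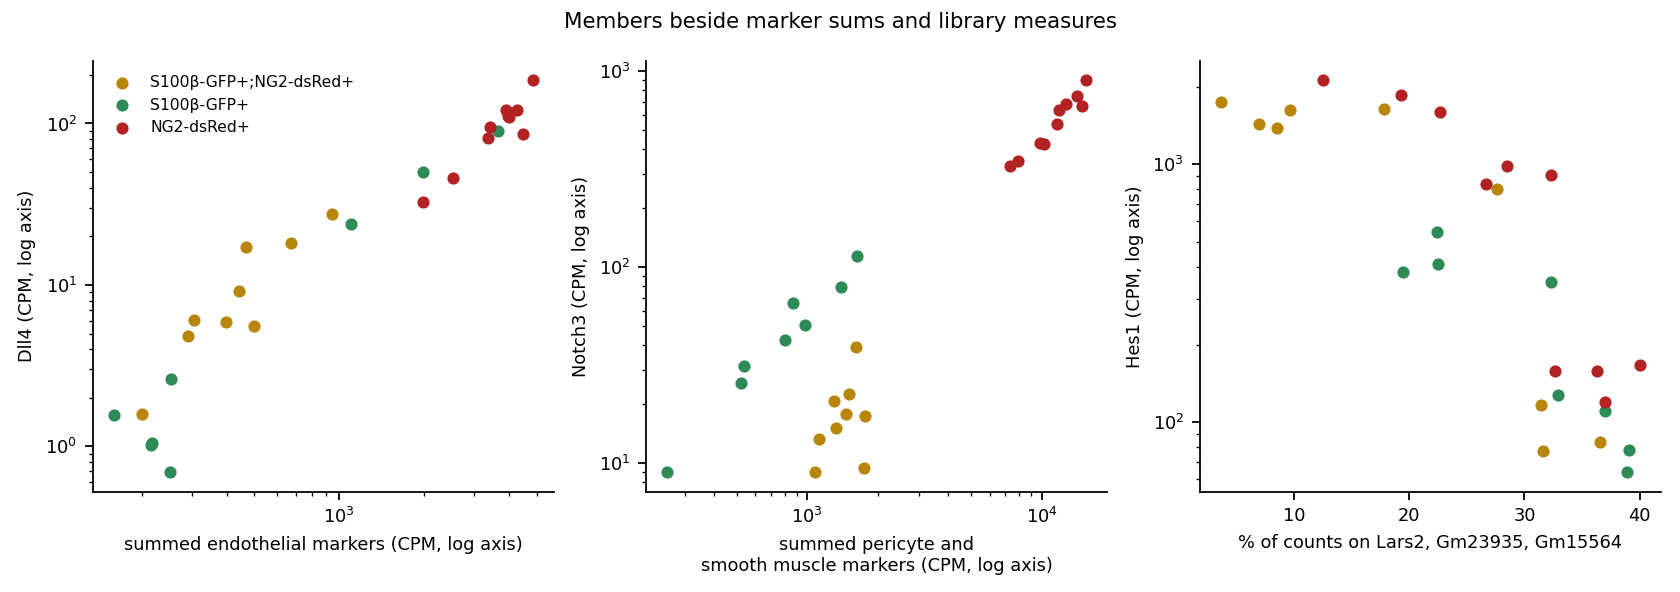
Left, Dll4 against the summed CPM of 14 endothelial markers; middle, Notch3 against 12 pericyte and smooth muscle markers; right, Hes1 against the percent of counts on Lars2, Gm23935 and Gm15564 (CPM axes are logarithmic, the percent axis is linear, 1 point per library, colours as in the legend). Dll4 is higher where the endothelial sum is higher, and Notch3 in PSCs lies under the level that S100β-GFP+ libraries of a like marker sum reach. Within each cell type Hes1 is lowest in the libraries with the highest percent, but libraries of near-equal percent can differ several fold in Hes1.

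Dll1 (chromosome 17, 15367354 to 15376872), the Delta-like ligand known from muscle progenitor niches, was the scarcest member. Its 9 PSC libraries held 109 counts in all, or 0.0956 to 3.72 CPM (median 0.908). S100β-GFP+ cells had 0.581 to 8.89 CPM (median 2.03) and NG2-dsRed+ cells 2.78 to 15.7 CPM (median 6.30). The PSC and NG2-dsRed+ ranges overlapped, with 7 of 9 PSC libraries below every NG2-dsRed+ library, and the log2 fold change was -2.43 ± 0.54 (edgeR adjusted p = 0.000513). Against S100β-GFP+ cells it was -0.98 ± 0.56 (edgeR adjusted p = 0.155) and 0.29 ± 0.60 without libraries 14, 17 and 22 (edgeR adjusted p = 0.725). Per length, Jag1 made up 71.3 ± 14.4% of the 4 ligands in PSCs and was the highest in 9 of 9 libraries, whereas in NG2-dsRed+ cells Dll4 was the highest in 7 (45.7 ± 8.02%) and Jag1 in 3 (37.2 ± 8.00%). The ligands summed to 11.8 ± 4.11 CPM per kb in PSCs, 14.8 ± 12.7 in S100β-GFP+ cells and 54.2 ± 16.8 for NG2-dsRed+ cells.

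The target genes Hes1 and Hey1, both repressors of the basic helix-loop-helix type, did not move together. Hey1 (chromosome 3, 8663359 to 8667256) was at 0.526 to 22.6 CPM (median 13.8) in PSCs, 3.14 to 44.5 CPM (median 8.74) in S100β-GFP+ cells and 35.6 to 154 CPM (median 85.9) in NG2-dsRed+ cells. PSC and NG2-dsRed+ libraries did not overlap, and the log2 fold change was -2.72 ± 0.47 (edgeR adjusted p = 2.05e-05). The difference between PSCs and S100β-GFP+ cells was -0.24 ± 0.47 (edgeR adjusted p = 0.706), and it was 1.14 ± 0.44 without libraries 14, 17 and 22 (edgeR adjusted p = 0.0399), the reverse direction. The lowest Hey1 value was again that of PSC library 18.

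Hes1 (chromosome 16, 30064384 to 30067796), a target that many signals besides Notch can raise, was the most abundant member per length, at 485.6 ± 355 CPM per kb in PSCs against 4.07 ± 2.12 for Hey1. In PSCs it ranged from 77.5 to 1736 CPM (median 1385), in S100β-GFP+ cells from 64.0 to 548 CPM (median 239) and in NG2-dsRed+ cells from 120.1 to 2113 CPM (median 874). Within PSCs, libraries 31, 23 and 6 held 77.5, 83.4 and 116 CPM while the other 6 held 803 to 1736 CPM. Within NG2-dsRed+ cells, libraries 7, 9, 30 and 15 held 120.1 to 166 CPM while the other 6 held 841 to 2113 CPM. Low and high libraries thus occurred within the same cell type. Hes1 was higher in PSCs relative to S100β-GFP+ cells by 1.93 ± 0.68 on the log2 scale (edgeR adjusted p = 0.0209), with 6 of 9 PSC libraries above every S100β-GFP+ library. Without libraries 14, 17 and 22 it was 1.72 ± 0.81 and no longer called (edgeR adjusted p = 0.0922). Between PSCs and NG2-dsRed+ cells the value was 0.15 ± 0.62 (edgeR adjusted p = 0.865), with an interval from -1.06 to 1.36.

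A property of the libraries moved with Hes1. The share of all counts that fell on Lars2, Gm23935 and Gm15564 ranged from 3.64 to 40.0% over the 27 libraries. In PSCs it was 31.5 to 36.6% in libraries 6, 23 and 31 and 3.64 to 27.7% in the rest, so the 3 libraries with the largest share were those with the least Hes1. The same held for the 4 NG2-dsRed+ libraries with the largest share (7, 9, 15 and 30) and for the 4 such S100β-GFP+ libraries (1, 14, 22 and 33, with 64.0 to 127 CPM of Hes1 against 350.5 to 548 CPM in the other 4). Near-equal shares also went with unlike Hes1 levels. NG2-dsRed+ libraries 9 and 21 had shares of 32.66 and 32.34% with 157 and 906 CPM. S100β-GFP+ libraries 33 and 17 had 32.95 and 32.33% with 127 and 350.5 CPM. With this share as a term in the fit, the Hes1 difference between PSCs and S100β-GFP+ cells was 0.16 ± 0.42 (edgeR adjusted p = 0.790), and that between PSCs and NG2-dsRed+ cells turned to -1.18 ± 0.39 (edgeR adjusted p = 0.0137). PSC libraries 6, 23 and 31 also held the 3 highest PSC values of Notch1 (126 to 177 CPM), Dll1 (2.12 to 3.72 CPM), Dll4 (17.1 to 27.3 CPM) and Jag2 (6.26 to 14.9 CPM), and NG2-dsRed+ libraries 7, 9, 15 and 30 held the 4 highest NG2-dsRed+ values of Notch1 (185 to 279 CPM). With the share as a term, Notch1 was higher in PSCs relative to S100β-GFP+ cells by 1.04 ± 0.22 (edgeR adjusted p = 0.000353) and differed from NG2-dsRed+ cells by -0.33 ± 0.21 (edgeR adjusted p = 0.215). What sets this share was not tested.

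**Figure D4:**
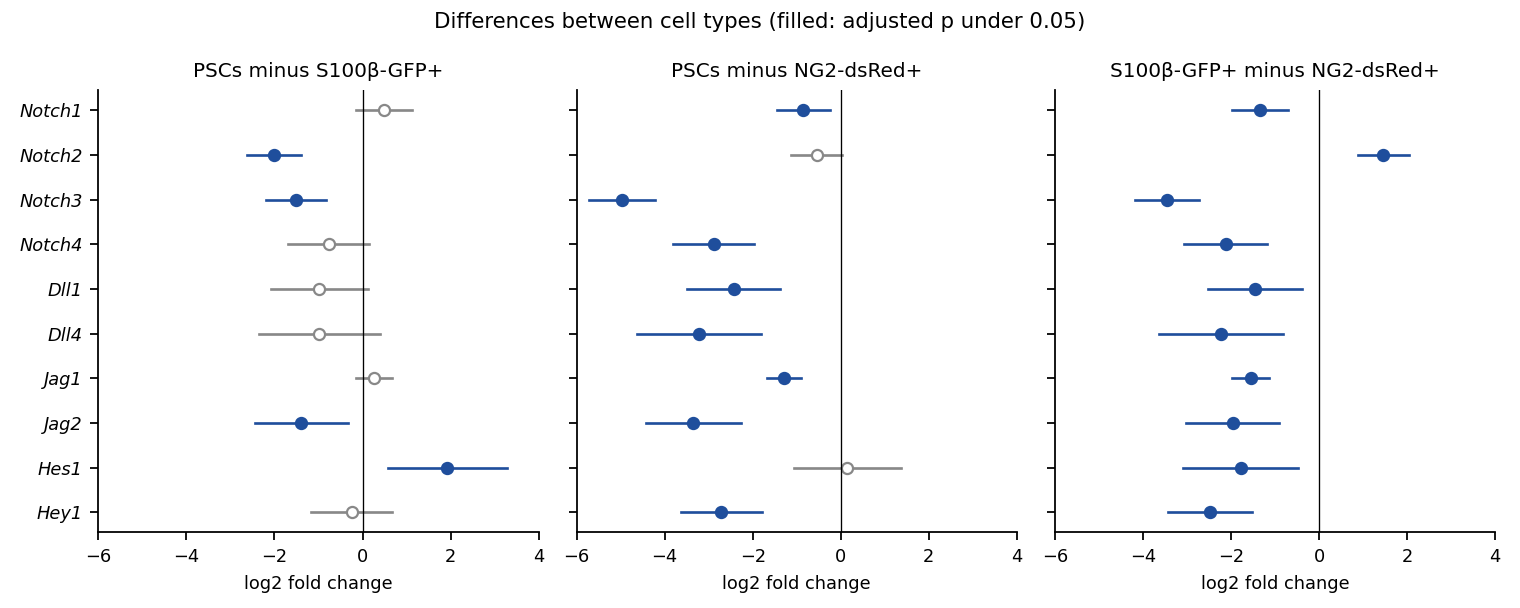
Log2 fold changes of the 10 members in the 3 comparisons; points are edgeR estimates, lines span 1.96 SE to each side, filled points have an adjusted p under 0.05 over all 15330 genes. In the middle panel 8 members lie left of 0 with filled points, and in the left panel Hes1 is the filled point right of 0.

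The further genes of the pathway were taken from 6 lists with 67 genes, of which 58 were tested. Between PSCs and S100β-GFP+ cells 15 were higher and 14 lower in PSCs, and between PSCs and NG2-dsRed+ cells 15 were higher and 20 lower. These are 50.0% and 60.3% of those tested, beside 47.0% and 44.0% of all genes, so the first count is near the background. Without S100β-GFP+ libraries 14, 17 and 22 the first counts were 19 and 14, beside 3621 and 3257 of all 16216 genes in that fit. Of 7 other target genes, 5 were tested and none was called between PSCs and S100β-GFP+ cells (Heyl 0.24 ± 0.32, Nrarp -0.85 ± 0.59, Hes6 0.03 ± 0.24, Hey2 -0.10 ± 0.54 and Dtx1 -0.39 ± 0.90 on the log2 scale). Without libraries 14, 17 and 22, Heyl was called higher in PSCs (0.94 ± 0.31, edgeR adjusted p = 0.0160), and Nrarp (0.60 ± 0.62), Hey2 (0.77 ± 0.61), Dtx1 (0.34 ± 1.09) and Hes6 (-0.02 ± 0.28) turned sign without a call. Against NG2-dsRed+ cells, Heyl, Nrarp and Hey2 were lower in PSCs. Heyl, a Hey family gene of vascular smooth muscle, held 5.74 to 17.2 CPM in PSCs and 84.4 to 217 CPM in NG2-dsRed+ cells (-3.99 ± 0.33, edgeR adjusted p = 4.70e-11). Nrarp, a target that dampens Notch signalling, stood at 2.03 ± 1.80 against 20.8 ± 8.10 CPM (-3.39 ± 0.58, edgeR adjusted p = 1.92e-05). Hes5, the target best known from neural progenitors, averaged at most 0.132 CPM in any cell type and was not tested.

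Of the 17 genes tested of the nuclear complex and its corepressors, 11 were higher and 1 was lower in PSCs relative to S100β-GFP+ cells (median 0.52), and 8 were higher and 1 lower than in NG2-dsRed+ cells (median 0.39). Over all genes 22.9% were higher and 24.1% lower in the first comparison, and 20.9% and 23.1% in the second. Without libraries 14, 17 and 22 the first counts were 10 and 1, where Tle3 lost its call (0.48 against 0.32 ± 0.18, edgeR adjusted p = 0.0196 and 0.151). Of all 16216 genes in that fit, 3621 were higher and 3257 lower. The gene lower than in S100β-GFP+ cells was Rbpj itself, the DNA-binding partner of the Notch intracellular domain, at 57.2 ± 26.2 CPM in PSCs and 240.2 ± 144 CPM in S100β-GFP+ cells (-2.07 ± 0.35, edgeR adjusted p = 1.51e-05). Against NG2-dsRed+ cells Rbpj differed by -0.18 ± 0.33 (edgeR adjusted p = 0.690). Its paralog Rbpjl, which is known from pancreas and does not bind Notch, was highest in PSCs, at 5.55 to 29.6 CPM against 1.22 to 3.46 and 0.390 to 1.14 CPM across the S100β-GFP+ and the NG2-dsRed+ libraries, with no overlap. Maml2, a Mastermind coactivator, was higher in PSCs relative to S100β-GFP+ cells (1.26 ± 0.22, edgeR adjusted p = 2.56e-05) and at -0.04 ± 0.20 against NG2-dsRed+ cells (edgeR adjusted p = 0.894).

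The fringe glycosyltransferases, which set the preference of a receptor between Delta-like and Jagged ligands, were low in PSCs in 2 of 3 cases. Lfng held 0.175 to 3.23 CPM in PSCs, 9.38 to 45.4 CPM in S100β-GFP+ cells and 2.85 to 10.6 CPM in NG2-dsRed+ cells. Every S100β-GFP+ library lay above every PSC library, and the log2 fold changes of PSCs were -4.18 ± 0.45 (edgeR adjusted p = 6.94e-09) and -2.35 ± 0.42 (edgeR adjusted p = 3.49e-05) against S100β-GFP+ and NG2-dsRed+ cells. Mfng was also lower in PSCs, by -2.16 ± 0.49 and -3.01 ± 0.48 (edgeR adjusted p = 0.000558 and 7.02e-06). Rfng, named after its values were seen, went the other way, at 0.71 ± 0.21 and 0.61 ± 0.20 (edgeR adjusted p = 0.00736 and 0.0135). Of the 9 glycosyltransferases tested, 1 was higher and 3 lower than in S100β-GFP+ cells, and 1 was higher and 4 lower than in NG2-dsRed+ cells. The shares called were 44.4% and 55.6%, near those of all genes in the first comparison (47.0%) and above in the second (44.0%).

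Of the 10 receptor proteases, 1 was higher and 4 lower in PSCs relative to S100β-GFP+ cells, and 3 were higher and 1 lower than in NG2-dsRed+ cells. The shares called, 50.0% and 40.0%, are near those of all genes (47.0% and 44.0%). The sheddases Adam10 and Adam17 moved apart. Adam10 was lower in PSCs by -0.56 ± 0.13 and -0.55 ± 0.13 against S100β-GFP+ and NG2-dsRed+ cells (edgeR adjusted p = 0.000982 and 0.000744). Adam17, named after its values were seen, held 117 to 304 CPM in PSCs, 68.1 to 102 CPM in S100β-GFP+ cells and 32.6 to 61.2 CPM in NG2-dsRed+ cells, with no overlap. Aph1c, a gamma-secretase subunit, was higher in S100β-GFP+ than in NG2-dsRed+ cells by 3.63 ± 0.50 (edgeR adjusted p = 9.66e-07), but its reads can be split with its near-identical copy Aph1b and the value is uncertain.

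Among 13 genes of ligand uptake and ubiquitin ligases, 2 were higher and 3 lower in PSCs relative to S100β-GFP+ cells, and 3 were higher and 7 lower than in NG2-dsRed+ cells. The shares called were 38.5% and 76.9%, beside 47.0% and 44.0% of all genes. Without libraries 14, 17 and 22 the first counts were 5 and 3, beside 3621 and 3257 of all 16216 genes. In that fit Lnx1 turned from -0.66 (edgeR adjusted p = 0.423) to 1.75 ± 0.64 (edgeR adjusted p = 0.0289). Dtx3 went from 0.41 (edgeR adjusted p = 0.245) to 0.90 ± 0.30 (edgeR adjusted p = 0.0168). Fbxw7, the ubiquitin ligase subunit that marks the Notch intracellular domain for decay, was named after its values were seen and stood at 83.4 to 253 CPM in PSCs, 16.1 to 37.1 CPM in S100β-GFP+ cells and 18.9 to 26.2 CPM in NG2-dsRed+ cells. No PSC library overlapped the others, with log2 fold changes of 2.53 ± 0.19 and 2.70 ± 0.17 (edgeR adjusted p = 4.09e-12 and 2.26e-13). Numb, an adaptor that limits Notch signalling, differed from S100β-GFP+ cells by 0.21 ± 0.21 (edgeR adjusted p = 0.438), or 0.70 ± 0.20 without those 3 libraries (edgeR adjusted p = 0.00538), and was lower than in NG2-dsRed+ cells by -0.74 ± 0.20 (edgeR adjusted p = 0.00309). Of the 8 other ligands, 4 were tested, of which 3 were lower in PSCs relative to S100β-GFP+ cells and 4 were lower than in NG2-dsRed+ cells (75.0% of those tested in the first comparison and all of them in the second). Of all genes, 24.1% and 23.1% were called lower, and a list of 4 genes is small. Mfap5 and Ccn3, matrix proteins reported to bind Notch1, averaged 1224 and 157 CPM in S100β-GFP+ cells against 30.7 and 5.57 CPM in PSCs (-5.31 ± 0.34 and -4.83 ± 0.42, edgeR adjusted p = 3.20e-13 and 8.28e-11), beside the fibroblast markers given above. Egfl7, an endothelial protein, was lower in PSCs than in NG2-dsRed+ cells (-2.46 ± 0.57, edgeR adjusted p = 0.000782), and its difference from S100β-GFP+ cells turned from -0.59 ± 0.57 (edgeR adjusted p = 0.415) to 2.39 ± 0.30 without libraries 14, 17 and 22 (edgeR adjusted p = 2.73e-07). Dner held 5.54 ± 3.52 CPM in S100β-GFP+ cells and was not tested, and Dlk1 had 0 counts in each cell type, which allows up to 3 counts over a group.

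**Figure D5:**
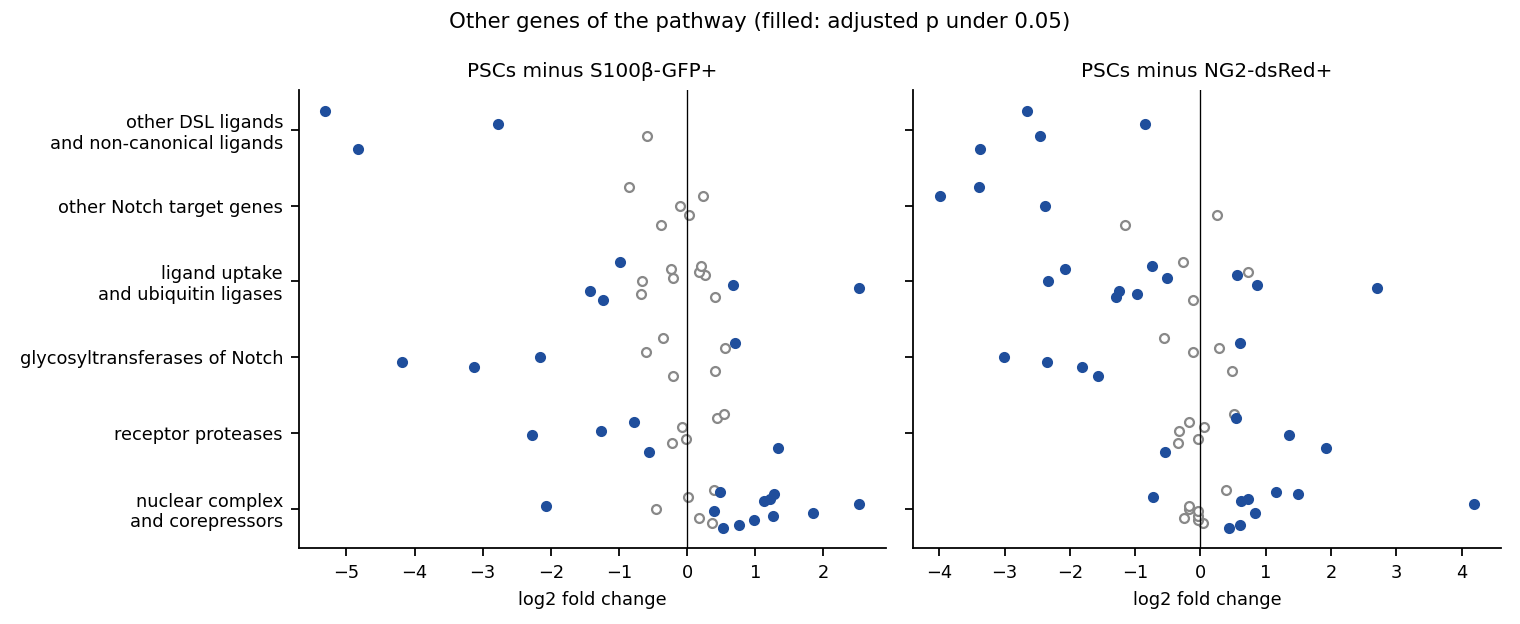
Log2 fold changes of the 58 tested genes of the 6 pathway lists in PSCs minus S100β-GFP+ cells (left) and PSCs minus NG2-dsRed+ cells (right); each point is 1 gene, spread vertically within its list for sight, filled where the adjusted p is under 0.05. The other target genes hold no filled point on the left and 3 on the right, all below 0, and the nuclear complex and corepressors hold 11 and 8 filled points above 0.

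The genes whose profiles over the 27 libraries were most like those of the members were found by the root-mean-square (RMS) difference of gene-centred log2 CPM. The nearest to Notch3 were Vtn, Ano1 and Mrvi1 (RMS 0.39 to 0.57, where the SD of Notch3 was 2.34). Nearest to Dll4 were Cldn5, Kdr and Myct1 (0.57 to 0.59, SD 2.42), of which Cldn5 and Kdr are on the endothelial marker list. Jag2 lay nearest to Gpr4, Icam2 and Arap3 (0.50 to 0.63), Hey1 to Gpr4, Tspan2 and Epha2 (0.49 to 0.56) and Notch4 to Tcim, Sema7a and S1pr1 (0.38 to 0.45). Among the members themselves Jag2 and Hey1 were each other's closest (0.66), as were Notch1 and Jag1 (0.56). For Notch1 the nearest were Fryl, Ctnnb1 and Actn4, for Jag1 Mprip, Oaz2 and Actn4, for Notch2 Skil, Dbn1 and G6pdx, and for Dll1 Tspan9, Gm37783 and Pald1. Hes1 stood furthest from every other member, its closest being Jag1 at 1.93, and its nearest genes were Pdap1, 2810454H06Rik and Zcchc10 (0.60 to 0.62). These likenesses are descriptions over libraries that share cell type, depth and sort.

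Reads of members that overlap another gene are uncertain where strand is not known. Notch1 overlaps the opposite-strand transcripts 0610009E02Rik and Gm13568 (222 and 68 counts over all libraries) and the microRNA Mir6996, Notch3 overlaps Gm17276 (75 counts), Dll1 A930024N18Rik (44 counts) and Dll4 Gm14207 (374 counts). Notch2 shares its strand with Gm42819 and Gm42820 (509 and 556 counts), and Gm20462 and Mir6941 within Notch4 and Jag2 had 0 counts. Notch1 by comparison had 6963 counts in PSCs alone.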

How the data were processed

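Raw read counts per gene, deposited by the authors as 1 table of 27 libraries, were used. Per the labels and the study's methods, RNA of sorted cells was amplified with SMART-Seq v4, reads were adaptor- and quality-trimmed with ea-utils and Btrim, aligned with HISAT2 to GRCm38 and counted with HTSeq. Versions, annotation and strand setting were not given in the sources used here. Libraries held 5221655 to 9592875 counts, and column numbers were matched to the library numbers of the sample titles. Symbols and positions came from GENCODE M21 (52489 of 52636 identifiers matched). No pair of replicates was identical, the lowest chi-square per degree of freedom among 109 pairs being 8.93.

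Counts were scaled by TMM and tested with edgeR 4.0.16 in R 4.3.3 (quasi-likelihood, filterByExpr with a minimum count of 10, 1 fit over all 27 libraries, Benjamini-Hochberg over 15330 genes, threshold 0.05). DESeq2 1.42.0, limma-voom 3.58.1 with quality weights, DESeq2 size factors, no filter, 2 cell types at a time, the share of counts on 3 genes as a term, and leaving out libraries were the alternatives. On simulated counts of 15030 genes, edgeR recovered 89.2% of 4-fold and 37.8% of 2-fold changes between PSCs and S100β-GFP+ cells, with 3.76% false among its calls, and 93.1% and 40.8% between PSCs and NG2-dsRed+ cells (4.93% false). Only 200 genes were changed there, all in PSCs, and no cell type held libraries of differing make-up. In the data 47.0% of genes were called between PSCs and S100β-GFP+ cells, so these rates do not carry over to the comparisons here.

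Named were the 10 members, fixed check genes and pathway genes, the 3 called pathway genes with the largest change in each comparison, the leading markers, the 3 genes nearest to each member, and overlapping genes; 1 gene of this rule is not reported here. Fbxw7, Adam17, Rfng, Dtx1, Dtx3, Lnx1, Tle3, Mcam, Tek and the 3 genes of the share of counts were added after their values were seen. Members and lists were chosen with earlier results of these data known. P-values measure the spread between replicates, each from 1 mouse. Whether the cell types shared mice is not given in the labels, and any such pairing was not used.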

Additional observations from a re-analysis of the deposited data

Results flagged for a closer look

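Of 30 sets of values (10 genes in each of 3 cell types), 1 held a library far from the others. Notch3 in PSC library 31 was 39.3 CPM, while the other 8 PSC libraries held 8.99 to 22.6 CPM, a gap of 0.55 of the whole range. Chance sets apart about 1 in 20 such sets. The same library held the highest PSC value of Notch2, Notch4, Dll1, Dll4, Jag2 and Hey1 and the lowest of Hes1. Its summed chondrocyte and tenocyte markers were 4309 CPM, against 3.35 to 42.2 CPM in the other PSC libraries, and its summed endothelial markers were 939 CPM, against 200.1 to 675.7 CPM. Their part in these values was not tested.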

How the results depend on the processing

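Between PSCs and NG2-dsRed+ cells 8 members were called, with 7 to 8 when each library was left out in turn and 8 to 9 under the other alternatives; between S100β-GFP+ and NG2-dsRed+ cells 10, with 8 to 10 and 9 to 10; between PSCs and S100β-GFP+ cells 4, with 3 to 4 and 2 to 7. Of the pathway lists 29, 35 and 29 genes were called (PSCs against S100β-GFP+, PSCs against NG2-dsRed+, S100β-GFP+ against NG2-dsRed+), with 29 to 36, 32 to 39 and 27 to 32 without single libraries and 29 to 37, 31 to 43 and 28 to 34 otherwise. The comparison of PSCs with S100β-GFP+ cells depended most on the processing: limma-voom called 2 members and the fit without S100β-GFP+ libraries 14, 17 and 22 called 7. Over all genes limma-voom called 3698 higher and 4128 lower of 15330, and the fit without those libraries 3621 and 3257 of 16216. Signs of PSCs minus S100β-GFP+ cells turned from negative to positive in the following fits. Leaving out libraries 14, 17 and 22 favours such turns, as they were picked by endothelial markers. Limma-voom gave 0.44 for Notch4, 1.53 for Dll4 and 0.85 for Hey1. The share of counts on 3 genes as a term gave 0.09 for Dll4 and 0.44 for Hey1. Without libraries 14, 17 and 22 the values were 1.02 for Notch4, 0.29 for Dll1, 2.95 for Dll4, 0.20 for Jag2 and 1.14 for Hey1, and with PSC library 18 also left out, an alternative chosen after seeing the data, 1.09, 0.43, 3.09, 0.35 and 1.30. Hey1 ranged from -0.40 to 0.18 without single libraries and was 0.18 and 0.11 without S100β-GFP+ libraries 17 and 22. Between PSCs and NG2-dsRed+ cells the Hes1 value turned from 0.15 to -1.18 with the share of counts as a term. The cause was not tested. Between S100β-GFP+ and NG2-dsRed+ cells the Hes1 call (-1.78) was lost in 10 of 27 fits without 1 library. These left out S100β-GFP+ library 1, 11, 14, 22 or 33 or NG2-dsRed+ library 2, 13, 21, 28 or 35 (-1.86 to -1.51). The Hes1 call was also lost under limma-voom, without S100β-GFP+ libraries 14, 17 and 22, and with PSC library 18 also left out. Over the alternatives other than single libraries this Hes1 value ranged from -1.80 to -0.97. The Dll1 call (-1.45) was lost in 10 fits without 1 library. These left out S100β-GFP+ library 1, 3, 11, 14, 27 or 33 or NG2-dsRed+ library 2, 7, 26 or 30 (-1.42 to -1.27). With no filter, 3907 genes were higher and 12649 lower in PSCs relative to S100β-GFP+ cells, against 3511 and 3687 with it, and 8194 and 2392 against 2771 and 2328 between S100β-GFP+ and NG2-dsRed+ cells. No paired analysis was possible because the labels do not say which libraries of different cell types came from the same mouse. Dll1 rests on few counts, 109 over the PSC libraries.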
